A study of Mus musculus with 8 samples.

Results

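Messenger RNA of 10 genes of the S100, annexin and galectin families was followed in CD8+ T cells sorted from mouse spleen. The genes were taken by symbol from the deposited count table: S100a4, S100a6, S100a10, S100a11 and S100a13, then Anxa1, Anxa2, Anxa5 and Anxa6, then Lgals1. They are 10 of the 29426 gene symbols in that table, and all 10 were among the 12313 genes expressed highly enough to be tested. They were chosen by family and by their CPM (counts scaled to the library's total) in all 8 libraries, by subset and genotype, so their levels and differences are given here as descriptions, without p-values. The 4 groups of 2 libraries were MP cells of mCre mice (mCre-MP), MP cells of WT mice (WT-MP), TN cells of mCre mice (mCre-TN) and TN cells of WT mice (WT-TN). The series title joins miR-29, a microRNA family, with Cre; the allele of the mCre animals, the cells in which a recombinase was active and the strain background are not stated in those labels. Spleens came from adult or neonatal animals, with no age given per library, and the labels do not say whether libraries of a group came from separate animals. CD8+ cells were enriched on beads and sorted after staining for CD8, CD4, CD44 and CD122; in the design text the same subsets appear as TN and VM.

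S100 proteins are small calcium sensors with EF-hand motifs that work mostly as dimers and bind other proteins when calcium rises. Annexins bind acidic membrane lipids in a calcium-dependent way and take part in membrane repair, membrane traffic and links to the actin cytoskeleton; S100A10 pairs with annexin A2 in a complex that does not need calcium. Galectin-1, the product of Lgals1, binds galactose-containing sugars on T cell glycoproteins and can dampen or kill activated T cells. Several of these genes are known to be higher in effector and memory CD8+ T cells than in naive ones.

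The promoters of 4 members are shown because S100a4 and S100a6 had very large differences between the subsets and Anxa2 a moderate one, whereas S100a11, another S100 gene of the same chromosome, had a small one. Sequences are from RefSeq on GRCm38.p6, the assembly also called mm10, and run from 250 bases before to 50 bases after the annotated start, 5′ to 3′ on the gene's strand. S100a4 is at chr3:90603520-90603819, S100a6 at chr3:90612644-90612943, S100a11 at chr3:93520246-93520545 and Anxa2 at chr9:69453433-69453732, all on the plus strand. Capitals mark matches, on either strand, to the TATA box TATAAA, the GC box GGGCGG, the AP-1 site TGANTCA, the T-box site AGGTGT, the CACCC box CCACCC and the CCAAT box CCAAT.
S100a4: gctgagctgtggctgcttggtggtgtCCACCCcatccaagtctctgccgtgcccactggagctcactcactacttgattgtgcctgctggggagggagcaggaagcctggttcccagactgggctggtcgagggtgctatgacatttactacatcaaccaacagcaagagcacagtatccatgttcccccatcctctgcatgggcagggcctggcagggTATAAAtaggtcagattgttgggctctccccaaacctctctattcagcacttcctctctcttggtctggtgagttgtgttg
S100a6: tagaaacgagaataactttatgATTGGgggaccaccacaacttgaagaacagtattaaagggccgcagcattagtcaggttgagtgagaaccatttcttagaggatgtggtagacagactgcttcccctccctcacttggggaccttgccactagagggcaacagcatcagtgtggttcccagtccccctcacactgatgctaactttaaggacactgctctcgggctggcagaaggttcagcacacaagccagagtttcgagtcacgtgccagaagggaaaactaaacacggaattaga
S100a11: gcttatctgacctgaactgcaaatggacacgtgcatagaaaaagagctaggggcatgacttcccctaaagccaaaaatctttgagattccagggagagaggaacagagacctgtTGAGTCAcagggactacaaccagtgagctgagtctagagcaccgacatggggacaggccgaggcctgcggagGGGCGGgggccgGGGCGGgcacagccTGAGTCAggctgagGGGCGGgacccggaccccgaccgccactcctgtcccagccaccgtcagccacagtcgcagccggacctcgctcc
Anxa2: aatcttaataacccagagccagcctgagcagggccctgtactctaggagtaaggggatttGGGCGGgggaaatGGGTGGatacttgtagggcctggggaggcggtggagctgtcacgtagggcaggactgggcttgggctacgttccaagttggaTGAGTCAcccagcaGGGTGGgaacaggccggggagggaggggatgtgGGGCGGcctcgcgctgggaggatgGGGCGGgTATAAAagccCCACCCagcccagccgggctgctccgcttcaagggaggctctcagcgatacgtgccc
These matches are letters in a window and not shown to be binding sites. S100a4 held TATAAA 31 bases before its start and CCACCC 224 bases before it, and S100a6 held neither but had CCAAT on the minus strand 228 bases before its start. Anxa2 had TATAAA 17 bases before its start, 3 matches to GGGCGG, 3 to CCACCC and 1 to TGANTCA, whereas S100a11 had 3 matches to GGGCGG and 2 to TGANTCA. Of 7 members with a promoter in the RefSeq table, 3 held TATAAA (Anxa1, Anxa2 and S100a4), against 13.6% of 32851 promoters of the same length. CCACCC was found in 3 (Anxa2, S100a13 and S100a4; 31.5% of all promoters), GGGCGG in 2 (Anxa2 and S100a11; 35.7%), TGANTCA in the same 2 (7.81%), AGGTGT in Anxa1 (13.7%) and CCAAT in S100a6 (37.4%). No motif searched was shared by S100a4 and S100a6, the members with the largest differences between subsets. Promoters of S100a10, Anxa6 and Lgals1 were not used here.

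The mature microRNAs of the miR-29 family are shown because the series is named for them. Capitals mark the seed, bases 2 to 8, which is the same in all 3 (RefSeq, GRCm38.p6).
mmu-miR-29a-3p: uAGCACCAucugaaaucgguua
mmu-miR-29b-3p: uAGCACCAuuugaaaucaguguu
mmu-miR-29c-3p: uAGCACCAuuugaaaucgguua
The 7 bases that pair with this seed, TGGTGCT, were absent from the longest annotated 3′ UTR of all 10 members, and from the 3′ UTRs of all their annotated coding transcripts. Among 11643 tested genes with a 3′ UTR of at least 30 bases, 15.4% held a match, or 16.4% over all transcripts. The members' 3′ UTRs were short, with a median of 262 bases against 1156 bases over tested genes.

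The libraries held 13479586 to 30057658 counts. Libraries of a group differed by more than sampling noise, with a chi-square per degree of freedom of 4.2 to 6.26, so no pair was counted as a single library deposited again; that spread may still be technical. Summed levels of 7 T cell identity genes (Cd8a, Cd8b1, the CD3 chains, Lck and Lat) were 6130 to 6490 CPM in all libraries, and Cd4 had 26 counts over the 8. Within that sum 1 gene rose and 3 fell in MP in mCre mice, and 0 rose and 2 fell in WT mice. Lat, an adaptor of T cell receptor signalling, fell by 0.41 in mCre mice and 0.50 in WT mice on the log2 scale (edgeR adjusted p = 6.76e-06 and 5.88e-07), and Cd3g fell by 0.23 and 0.24 (edgeR adjusted p = 0.000879 and 0.000509). Cd44, a sort marker, averaged 156 ± 8.01 CPM in mCre-MP, 141 ± 4.52 in WT-MP, then 14.8 ± 2.42 in mCre-TN and 14.8 ± 0.829 in WT-TN (SD, n = 2 each). Markers of other cell types were present at low levels: 15 myeloid markers summed to 31.3 to 59 CPM and 8 B cell markers to 17.8 to 22.6 CPM per library. In bulk RNA, fewer cells of a type and less RNA per cell cannot be told apart, for every result below.

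MP cells had more RNA of 9 of the 10 members than TN cells in both genotypes. The members divided into a pair with very large differences, S100a4 and S100a6; 3 with moderate ones, Anxa1, Anxa2 and Lgals1; 4 with small ones, S100a10, S100a11, S100a13 and Anxa6; and Anxa5, whose groups overlapped. The median log2 fold change of the 10, MP over TN, was 0.82 in mCre mice and 1.24 in WT mice, against 0.00237 and −0.00188 over all genes tested. In mCre mice 9 members were called higher and 0 lower, where 17.0% of all genes were called higher, 15.5% lower and 32.5% either way; a call is an adjusted p under 0.05 in edgeR's quasi-likelihood test. In WT mice 9 members were called higher and 0 lower, where 16.2% of genes were called higher, 15.6% lower and 31.7% either way. For the same 9 members in each genotype, the libraries of the subsets did not overlap, as for 67.0% of all genes in mCre mice and 64.1% in WT mice. With DESeq2 6 were called in mCre mice and 9 in WT mice, and without mCre-MP replicate 2 only 5 were called in mCre mice. Nothing is read from these counts, because the levels themselves led to the choice of the genes. Anxa1 also passed the expression filter through its MP libraries only.

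**Figure D1:**
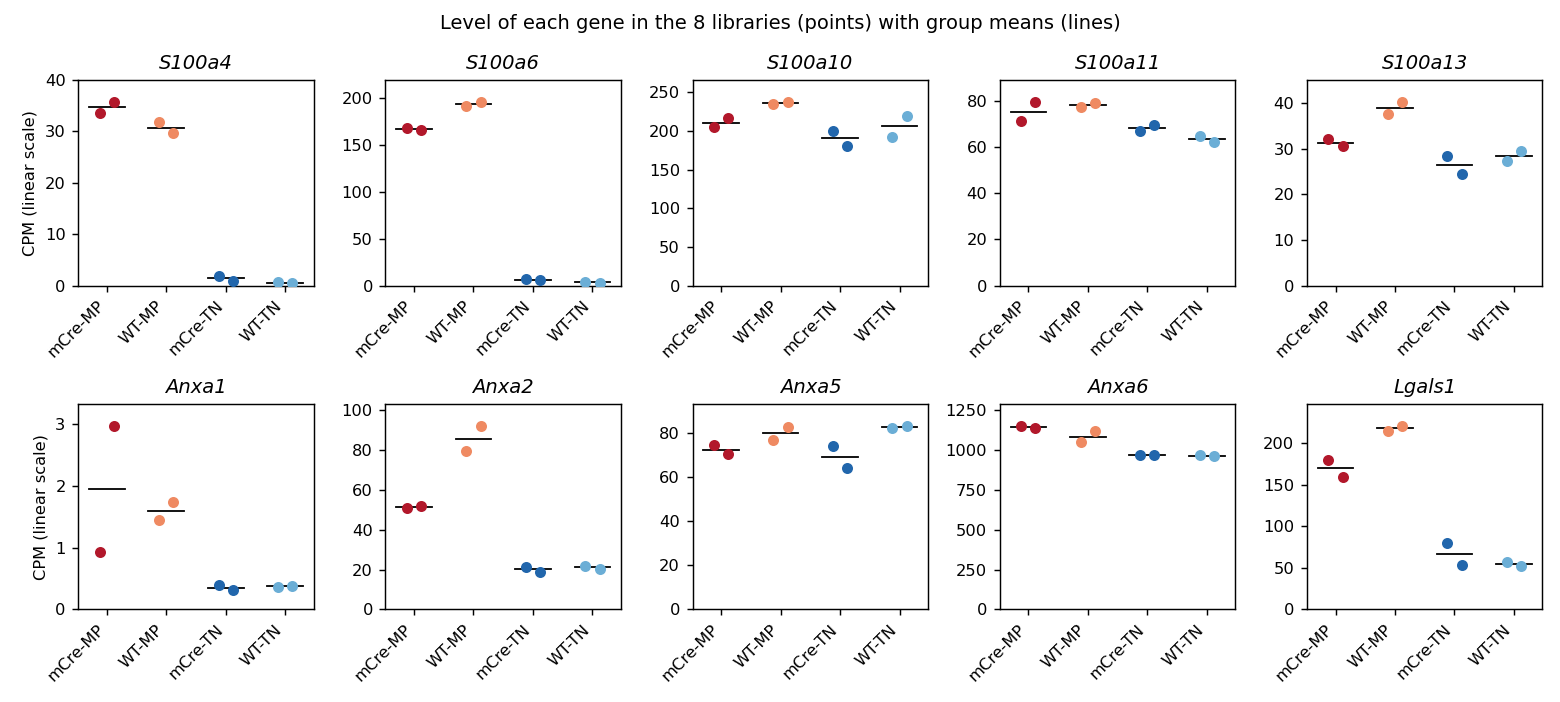
Level of each of the 10 genes in CPM (vertical axes, linear, from 0), with a point for each library and a line at each group's mean, in mCre-MP, WT-MP, mCre-TN and WT-TN from left to right. S100a4 and S100a6 lie close to 0 in all 4 TN libraries, Anxa1 was below 3 CPM throughout, and Anxa5 lies at similar levels in all libraries. Anxa6 lies slightly higher in every MP library than in any TN library.

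**Figure D2:**
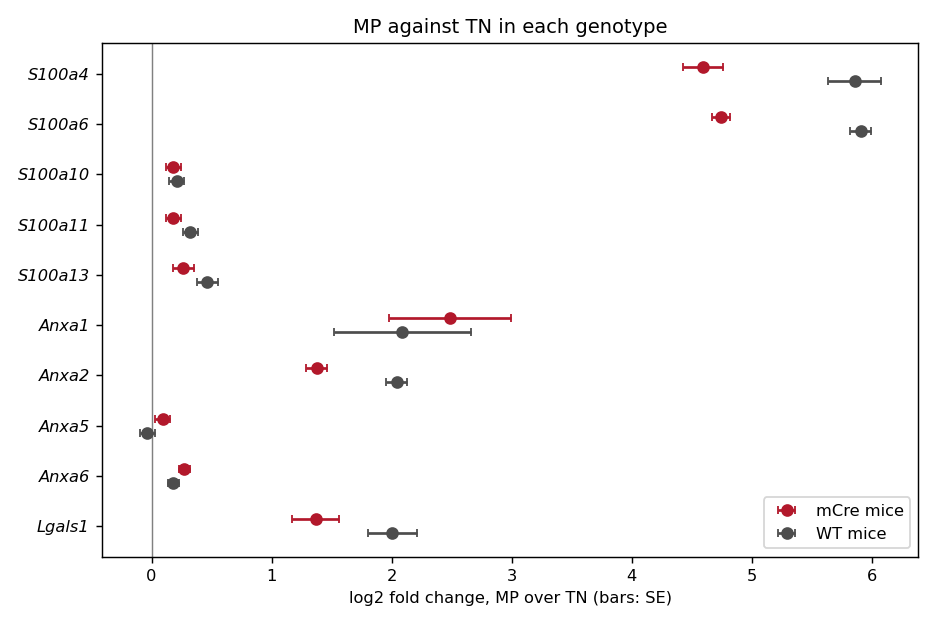
Log2 fold change of MP over TN (horizontal axis) for each gene, in mCre mice and in WT mice, with bars for the standard error of the fit. S100a4 and S100a6 lie between 4.60 and 5.91, Anxa1, Anxa2 and Lgals1 between 1.37 and 2.49, and the other genes below 0.50.

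S100a4 encodes a calcium-binding partner of nonmuscle myosin II that is tied to cell motility. It was at 33.7 and 35.7 CPM in the mCre-MP libraries, 31.9 and 29.7 in WT-MP, then 1.83 and 0.932 in mCre-TN, and 0.668 and 0.430 in WT-TN. Both MP groups lay far above both TN groups. The log2 fold change, MP over TN, was 4.60 (SE 0.167) in mCre mice and 5.86 (SE 0.222) in WT mice. The TN values rest on few reads, 55 and 18 counts in mCre-TN and 9 and 8 in WT-TN. An annotated gene, Gm42674, overlaps S100a4 on the same strand and has no line in the count table, so the assignment of shared reads is uncertain.

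S100a6 (calcyclin), which binds calcium and zinc and interacts with the calcyclin-binding protein encoded by Cacybp, followed the same pattern. It had 168 and 165 CPM in mCre-MP, 191 and 196 in WT-MP, then 6.82 and 5.70 in mCre-TN, and 3.26 and 3.23 in WT-TN. No library of any group fell within the range of another group. MP over TN, the log2 fold change was 4.74 (SE 0.0724) in mCre mice and 5.91 (SE 0.0865) in WT mice, above 99.2% and 99.4% of all genes tested. Expressed as a share of the MP level, TN cells kept 3.76% of S100a6 in mCre mice and 1.68% in WT mice, and 3.98% and 1.78% of S100a4. For comparison, TN cells kept 9.48% of Cd44 in mCre mice and 10.5% in WT mice, and 15.5% and 14.6% of Il2rb, which encodes CD122.

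The other 3 S100 members differed little between subsets. S100a10, the partner of annexin A2, had 205 and 217 CPM in mCre-MP, 235 and 238 in WT-MP, then 200 and 181 in mCre-TN, and 192 and 220 in WT-TN. The subsets did not overlap within a genotype, but the WT-TN library at 220 CPM lay above both mCre-MP libraries. On the log2 scale, MP exceeded TN by 0.18 (SE 0.0628) in mCre mice and 0.21 (SE 0.0631) in WT mice. The call in mCre mice was lost with DESeq2 (0.18), with scaling by total counts alone (0.15), and without WT-MP replicate 1 (0.18), WT-MP replicate 2 (0.18), mCre-TN replicate 2 (0.12) or mCre-MP replicate 2 (0.13). The call in WT mice was lost without WT-TN replicate 1 (0.13), WT-MP replicate 1 (0.22) or WT-MP replicate 2 (0.21).

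S100a11 (calgizzarin) binds annexin A1 in a calcium-dependent way. Its level was 71.3 and 79.7 CPM in mCre-MP, 77.7 and 79.4 in WT-MP, then 67.0 and 69.5 in mCre-TN, and 64.9 and 62.1 in WT-TN. All 4 MP libraries lay above all 4 TN libraries. Its fold change, MP over TN on the log2 scale, was 0.18 (SE 0.0614) in mCre mice and 0.32 (SE 0.0633) in WT mice. The call in mCre mice was lost with DESeq2 (0.18), with scaling by total counts alone (0.15), without mCre-TN replicate 1 (0.15) and without mCre-MP replicate 2 (0.09).

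S100a13 is known for its part in the export of FGF1 and interleukin-1α, proteins that lack a signal peptide. It had 32.2 and 30.5 CPM in mCre-MP, 37.5 and 40.3 in WT-MP, then 28.5 and 24.5 in mCre-TN, and 27.2 and 29.6 in WT-TN. All MP libraries again lay above all TN libraries, and WT-MP above mCre-MP. The log2 fold change, MP over TN, was 0.27 (SE 0.0862) in mCre mice and 0.46 (SE 0.0874) in WT mice. The call in mCre mice was lost with DESeq2 (0.27) and without mCre-MP replicate 1 (0.23), mCre-TN replicate 2 (0.18) or mCre-MP replicate 2 (0.30).

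Among the annexins, Anxa2 had the largest difference that rested on many reads. Annexin A2 organises membrane domains and, with S100A10, binds plasminogen activators at the cell surface. Its RNA was at 51.0 and 51.7 CPM in mCre-MP, 79.4 and 92.1 in WT-MP, then 21.5 and 18.7 in mCre-TN, and 21.8 and 20.3 in WT-TN. The groups formed 3 levels, with WT-MP highest, mCre-MP between, and both TN groups together at the bottom. MP over TN, the log2 fold change was 1.38 (SE 0.0853) in mCre mice and 2.04 (SE 0.0872) in WT mice. Anxa2 overlaps a microRNA gene on its own strand, Mir3109, which had 1 count in all, and an antisense transcript, Gm16144, which has no line in the table.

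Anxa1 encodes an annexin that is released by myeloid cells and acts through formyl peptide receptors to limit inflammation. It was the least abundant member, also per kilobase of exon, at 0.926 and 2.97 CPM in mCre-MP, 1.45 and 1.74 in WT-MP, then 0.399 and 0.311 in mCre-TN, and 0.371 and 0.377 in WT-TN. These values stand for 17 and 73 counts in mCre-MP, 34 and 38 in WT-MP, then 12 and 6 in mCre-TN, and 5 and 7 in WT-TN. Only its MP libraries were high enough for the expression filter, so Anxa1 was tested because of the subset in which it is high. All MP libraries lay above all TN libraries, but the mCre-MP libraries differed from each other more than the MP groups did. On the log2 scale, MP exceeded TN by 2.49 (SE 0.51) in mCre mice and 2.09 (SE 0.571) in WT mice. Without mCre-MP replicate 2 it was 1.37 in mCre mice and not called, and without WT-TN replicate 2 it was 2.11 in WT mice and not called.

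The mCre-MP library with 73 Anxa1 counts also had 23 counts of S100a8 and 27 of S100a9, the calprotectin genes of neutrophils and monocytes. Outside it S100a8 had 2 counts and S100a9 had 3, all in WT-TN replicate 2, and the other 6 libraries had 0 counts of both, which allows up to 3 counts a library. The 15 myeloid markers summed to 36 CPM in that library and 34 CPM in the other mCre-MP library, 59 and 38.3 in WT-MP, then 35.3 and 31.3 in mCre-TN, and 53.9 and 41.6 in WT-TN. In that list, 1 of 12 tested genes was called higher in MP in mCre mice (Ly86, chosen after its value was seen) and 0 in WT mice by edgeR, where 0 also had an unadjusted p under 0.05. The call of Ly86 was lost without mCre-MP replicate 1 (1.75) or either mCre-TN library (1.62 and 2.28). The part of such cells in the Anxa1 values was not tested.

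Anxa5 encodes the phosphatidylserine-binding protein used to label dying cells, and Anxa6 an annexin with a doubled core that links membranes and actin. Anxa5 had 74.7 and 70.4 CPM in mCre-MP, 77.1 and 83.0 in WT-MP, then 74.3 and 64.3 in mCre-TN, and 82.3 and 83.4 in WT-TN. Its subsets overlapped in both genotypes, with log2 fold changes, MP over TN, of 0.09 (SE 0.0654) in mCre mice and −0.03 (SE 0.0659) in WT mice. Anxa6 had 1152 and 1137 CPM in mCre-MP, 1048 and 1122 in WT-MP, then 967 and 969 in mCre-TN, and 968 and 965 in WT-TN. Its 4 TN libraries lay within a few CPM of each other and below all MP libraries. The log2 fold change was 0.27 (SE 0.0469) in mCre mice and 0.18 (SE 0.047) in WT mice, where the call was lost without WT-MP replicate 2 (0.14).

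Lgals1 encodes galectin-1, which memory and regulatory T cells can secrete. It was at 180 and 160 CPM in mCre-MP, 215 and 221 in WT-MP, then 79.9 and 53.7 in mCre-TN, and 57.8 and 52.3 in WT-TN. MP libraries lay above TN libraries throughout, with WT-MP above mCre-MP, and mCre-TN replicate 1 stood above the other 3 TN libraries. Its fold change, MP over TN on the log2 scale, was 1.37 (SE 0.197) in mCre mice and 2.01 (SE 0.206) in WT mice. A fit of the mCre groups alone gave 1.36 and no call.

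Markers of other cell types moved with the subset too, those of NK and innate lymphoid cells most of all. Of 10, all 10 rose in MP in both genotypes, where 17.0% of all genes were called higher in mCre mice and 16.2% in WT mice. Their summed level was 806 to 843 CPM in mCre-MP, 839 to 863 in WT-MP, then 432 to 438 in mCre-TN and 436 to 455 in WT-TN. Most of that sum was Nkg7 and Eomes, which memory-type CD8+ T cells also express. The NK receptor gene Ncr1 had 3 and 15 counts in mCre-MP, 5 and 15 in WT-MP, and 0 in all TN libraries; Klrb1c was also at 0 counts in all TN libraries. Klre1 had 1 count in mCre-TN and 2 in WT-TN, and Zbtb16 had 0 and 4. Ncr1, Klrb1c, Klre1 and Zbtb16 thus passed the expression filter through MP libraries only, and nothing is read from their rise. Dendritic cell markers moved through Itgax, the 1 of 5 tested called higher in MP in both genotypes. Of 5 tested CD4 and regulatory T cell markers, 3 rose and 1 fell in mCre mice and 3 rose and 2 fell in WT mice, with a sum of 24.4 to 26.4 CPM in mCre-MP, 25.4 to 27.2 in WT-MP, then 8.03 to 10.3 in mCre-TN and 7.49 to 8.61 in WT-TN. On the log2 scale, MP over TN, Zbtb7b was at 2.82 in mCre mice and 3.71 in WT mice, Il2ra at 1.89 and 2.24, Ctla4 at 2.45 and 1.97, and Ikzf4 at −0.94 and −1.15. Foxp3, the regulatory T cell gene of the list, was chosen after its value was seen. It was at −0.52 in mCre mice, not called, and at −1.48 in WT mice (SE 0.43, edgeR adjusted p = 0.0127). Its WT value rested on 31 counts in WT-MP and 64 in WT-TN. The call of Ctla4 in WT mice was lost without WT-TN replicate 2 (1.34) or WT-MP replicate 2 (1.76), and that of Ikzf4 in mCre mice without mCre-TN replicate 1 (−0.69) or mCre-MP replicate 1 (−0.88). edgeR called 0 of 4 tested B cell markers and 0 of 4 tested markers of red cells and platelets; 1 of the red cell and platelet markers had an unadjusted p under 0.05 in WT mice. The part of such cells in the members' differences was not tested.

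Compared per kilobase of exon, the order of the members differed between subsets. Anxa6 was highest in every group, at 391 ± 3.67 CPM per kb in mCre-MP, 370 ± 17.8 in WT-MP, then 330 ± 0.377 in mCre-TN and 330 ± 0.693 in WT-TN (SD, n = 2 each), and Anxa1 was lowest, below 1 CPM per kb in each group's mean. In mCre-MP the order below Anxa6 was Lgals1 (188 ± 15.6), S100a10 (174 ± 6.91), S100a11 (148 ± 11.7), S100a6 (122 ± 1.44), S100a4 (59.4 ± 2.5), S100a13 (43.8 ± 1.6), Anxa5 (40.8 ± 1.71) and Anxa2 (13.8 ± 0.141). Lgals1 and S100a10 did not differ there beyond their spread. In WT-MP the order was the same except that S100a13 (54.4 ± 2.7) and S100a4 (52.7 ± 2.65) changed places, and they did not differ beyond their spread. In both TN groups S100a10 came second, at 157 ± 11.2 in mCre-TN and 170 ± 16.2 in WT-TN. In rank S100a6 and S100a4 came next above Anxa1, though not close to it in level. S100a4 was at 2.37 CPM per kb in mCre-TN and 0.940 in WT-TN, and Anxa1 at 0.122 and 0.128. S100a6 was at 4.58 ± 0.58 CPM per kb in mCre-TN and 2.38 ± 0.0186 in WT-TN. With the length of the longest transcript in place of all exons, S100a10 (308 CPM per kb) and S100a6 (213) moved ahead of or level with Lgals1 (213) in mCre-MP, and S100a10 (345) ahead of Lgals1 (273) in WT-MP.

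**Figure D3:**
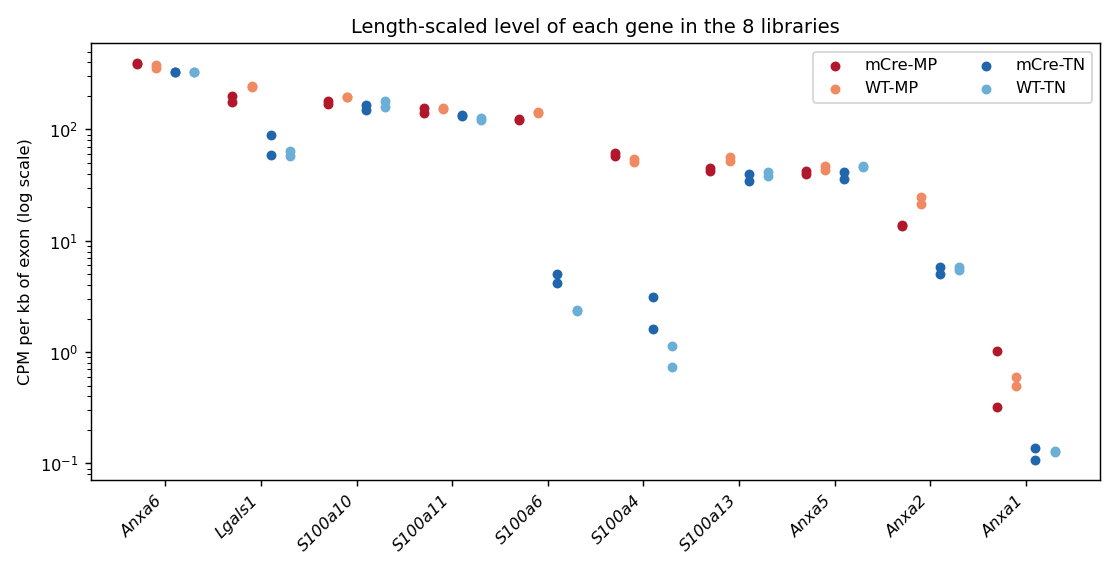
Level of each gene in CPM per kilobase of exon (vertical axis, log scale), with a point for each library, in mCre-MP, WT-MP, mCre-TN and WT-TN from left to right within each gene. S100a6 and S100a4 lie in the middle of the 10 genes in MP and near the bottom in TN, whereas Anxa6 is highest in every library.

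Between genotypes, MP cells of mCre mice had less Anxa2, S100a13 and S100a6 RNA than MP cells of WT mice. Of the 10 members, 0 were called higher and 3 lower, where 2.08% of all genes were called higher, 1.97% lower and 4.04% either way. The libraries of the genotypes did not overlap for 8 members, 2 higher (S100a4 and Anxa6) and 6 lower in mCre, against 48.9% of all genes not overlapping. Anxa2 averaged 51.3 ± 0.528 CPM in mCre-MP and 85.7 ± 8.98 in WT-MP (SD, n = 2 each), a log2 fold change, mCre over WT, of −0.74 (SE 0.0766). That of S100a13 was −0.31 (SE 0.0841), with 31.3 ± 1.15 CPM in mCre-MP and 38.9 ± 1.93 in WT-MP, and that of S100a6 −0.21 (SE 0.0514), with 167 ± 1.97 CPM in mCre-MP and 193 ± 3.42 in WT-MP. The call of Anxa2 was made under every alternative run, from −0.84 to −0.63. The calls of S100a6 and S100a13 were lost with DESeq2 (−0.21 and −0.32) and when any single MP library was left out, with values of −0.23 to −0.20 for S100a6 and −0.37 to −0.27 for S100a13.

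Lgals1 was also lower in both mCre-MP libraries than in both WT-MP libraries, at 170 ± 14.1 against 218 ± 4.19 CPM (SD, n = 2 each). Its log2 fold change, mCre over WT, was −0.36 (SE 0.187) and was not called; it was called in a fit of the MP groups alone (−0.36) and without mCre-TN replicate 1 (−0.36) or mCre-TN replicate 2 (−0.37). S100a10 (−0.16, SE 0.0626) and Anxa5 (−0.14, SE 0.0651) were likewise lower in both mCre-MP libraries and not called. The log2 fold change, mCre over WT, of S100a4 was 0.18 (SE 0.114) and that of Anxa6 0.08 (SE 0.0469). The groups overlapped for S100a11 (−0.05, SE 0.061) and Anxa1 (0.34, SE 0.416). Without mCre-MP replicate 2 the Anxa1 value was −0.78.

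Other markers also differed between the genotypes in MP cells. Of 12 tested myeloid markers, 0 were called higher and 1 lower in mCre-MP, with 6 at an unadjusted p under 0.05. Their median log2 fold change, mCre over WT, was −0.95, with Itgam (0.67) and Cd68 (0.14) above 0 and not called. The gene called lower was C1qa, a complement gene of macrophages (−1.68, SE 0.408, edgeR adjusted p = 0.0243). C1qa had few reads, 35 counts in mCre-MP and 119 in WT-MP. Its call was lost without WT-MP replicate 1 (−0.90), mCre-MP replicate 1 (−1.48) or mCre-MP replicate 2 (−1.99). Of 10 NK and innate lymphoid markers, 0 were higher and 2 lower: Klre1 at −1.58 (SE 0.243, edgeR adjusted p = 0.000618) and Zbtb16 at −2.49 (SE 0.51, edgeR adjusted p = 0.00809). Zbtb16 had 12 counts in mCre-MP and 73 in WT-MP, and Klre1 had 158 and 489. The call of Zbtb16 was lost with DESeq2 (−2.49) and without WT-MP replicate 1 (−2.56), WT-MP replicate 2 (−2.43) or mCre-MP replicate 2 (−2.07). The part of such cells in the members' genotype differences was not tested.

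In TN cells, mCre mice had more S100a6 and S100a4 RNA than WT mice, at levels far below those of MP cells. Of the 10 members, 2 were called higher and 1 lower, where 1.55% of all genes were called higher, 1.92% lower and 3.47% either way. Without either WT-TN library 1 member was called. The libraries of the genotypes did not overlap for 4 members, 3 higher (S100a4, S100a6 and S100a11) and 1 lower (Anxa5) in mCre, against 45.8% of all genes not overlapping. S100a6 averaged 6.26 ± 0.793 CPM in mCre-TN and 3.25 ± 0.0254 CPM in WT-TN (SD, n = 2 each). Its log2 fold change, mCre over WT, was 0.95 (SE 0.132), and it was called under every alternative run, from 0.81 to 1.05. S100a4 averaged 1.38 ± 0.635 CPM in mCre-TN and 0.549 ± 0.168 CPM in WT-TN, from 73 and 17 counts in all, with a log2 fold change, mCre over WT, of 1.44 (SE 0.367). Its call was lost in a fit of the TN groups alone (1.40) and without WT-TN replicate 1 (1.74), mCre-TN replicate 1 (0.80) or WT-TN replicate 2 (1.11).

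Anxa5 was lower in both mCre-TN libraries than in both WT-TN libraries, at 69.3 ± 7.1 against 82.8 ± 0.795 CPM (SD, n = 2 each). The log2 fold change, mCre over WT, was −0.27 (SE 0.0662), and the call was lost with DESeq2 (−0.27) and without WT-TN replicate 1 (−0.28), WT-TN replicate 2 (−0.26) or mCre-TN replicate 2 (−0.18). Lgals1 was at 66.8 ± 18.5 CPM in mCre-TN and 55.0 ± 3.88 CPM in WT-TN, with overlapping libraries and a log2 fold change of 0.28 (SE 0.212). Without mCre-TN replicate 2, the lower of the mCre libraries, Lgals1 was at 0.52 and was called. S100a11, S100a10, S100a13, Anxa1, Anxa2 and Anxa6 lay between −0.13 and 0.09 and were not called.

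Genes abundant in MP cells were also read in the TN libraries. Ccl5, a chemokine gene chosen after its values were seen, was at 0.572% of its MP level in mCre-TN and at 0.358% in WT-TN, a higher share in mCre-TN, as for S100a6 at 3.76% in mCre-TN and 1.68% in WT-TN. Other genes higher in MP kept larger shares: Cd44 was at 9.48% in mCre-TN and 10.5% in WT-TN, Eomes at 18.2% in mCre-TN and 21.4% in WT-TN, and Nkg7 at 63.9% in mCre-TN and 66.5% in WT-TN. Il2rb and Tyrobp had the higher share in mCre-TN. Il2rb was at 15.5% in mCre-TN and 14.6% in WT-TN, and Tyrobp, a gene of low level, at 54.0% and 42.8%. The 12 tested myeloid markers included 3 lower in mCre-TN than in WT-TN and 0 higher. They were C1qa (−1.58, SE 0.397, edgeR adjusted p = 0.032), Csf1r (−1.45, SE 0.342, edgeR adjusted p = 0.0462) and Vcam1 (−1.25, SE 0.304, edgeR adjusted p = 0.0469; chosen after its value was seen). The call of C1qa was lost when any single TN library was left out (−1.75 to −1.41), and that of Csf1r when any single TN or mCre-MP library was left out (−1.74 to −1.13). That of Vcam1 was lost without either WT-TN library, either mCre-MP library or mCre-TN replicate 2 (−1.34 to −0.98), and when libraries were scaled by total counts alone (−1.24). The part of such cells, and of MP cells, in the S100a4 and S100a6 values of TN libraries was not tested.

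**Figure D4:**
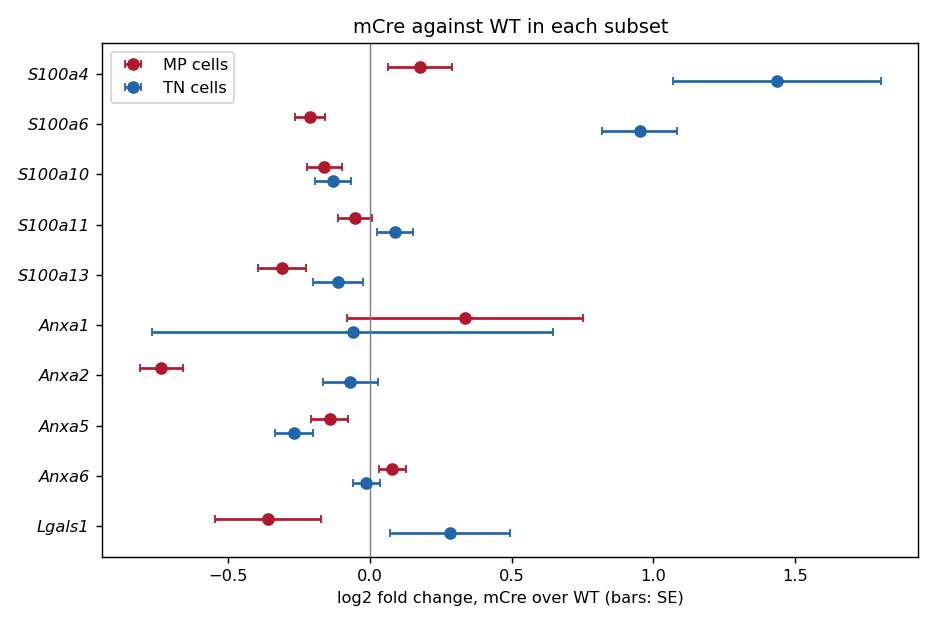
Log2 fold change of mCre over WT (horizontal axis) for each gene, in MP cells and in TN cells, with bars for the standard error of the fit. S100a6 lies at −0.21 in MP and 0.95 in TN, Anxa2 at −0.74 in MP and −0.07 in TN, and the wide bars of Anxa1 go with its low counts.

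The difference between subsets was smaller in mCre than in WT mice for S100a6 and Anxa2 under every alternative run. The same direction held throughout for S100a4, Lgals1, S100a11 and S100a13, which were not called in the fit of all 8 libraries. For Anxa2 the genotype dependence was called under most alternatives but not all. The interaction, the MP over TN log2 fold change in mCre mice minus that in WT mice, was called lower for 2 members and higher for 0, where 0.13% of all genes were called, 0.0487% higher and 0.0812% lower. It was −1.16 (SE 0.141) for S100a6 and −0.67 (SE 0.123) for Anxa2. S100a6 was higher in mCre-TN than in WT-TN and lower in mCre-MP than in WT-MP, and the call in MP was lost with DESeq2 and when any single MP library was left out. Anxa2 was called between genotypes in MP cells and not in TN cells. S100a6 was called under every alternative run, from −1.27 to −1.02, whereas the call of Anxa2 was lost without mCre-TN replicate 1 (−0.57), WT-TN replicate 2 (−0.61), WT-MP replicate 2 (−0.57) or mCre-MP replicate 2 (−0.69). S100a4 was at −1.26 (SE 0.388) and Lgals1 at −0.64 (SE 0.283), neither called; Lgals1 was called without mCre-TN replicate 2 (−0.89). The other 6 members lay between −0.20 and 0.40.

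Position on the chromosome was compared next. In GENCODE M21 on GRCm38, all 5 S100 members and Anxa5 lie on chromosome 3, Anxa1 on 19, Anxa2 on 9, Anxa6 on 11 and Lgals1 on 15. S100a4 (chr3:90603771-90606045) and S100a6 (chr3:90612882-90624181) are neighbours 6.84 kb apart on the plus strand. S100a13 (chr3:90514435-90524581) lies 79.2 kb before S100a4, and S100a11 (chr3:93520488-93526287) and S100a10 (chr3:93555080-93564643) lie 2900 kb beyond S100a6 and 28.8 kb from each other. Of 8 other tested genes within 250 kb of an S100 member, 1 rose and 2 fell in MP in mCre mice, and 2 rose and 1 fell in WT mice. Gatad2b, a subunit gene of the NuRD chromatin complex, fell by 0.43 in mCre mice (SE 0.0543, edgeR adjusted p = 4.57e-06) and by 0.34 in WT mice (SE 0.0548, edgeR adjusted p = 6.98e-05) on the log2 scale.

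Ints3, an Integrator subunit gene, was at 0.18 (SE 0.057, edgeR adjusted p = 0.0224) and 0.19 (SE 0.0584, edgeR adjusted p = 0.0181), MP over TN. Its calls were lost with DESeq2 (0.18 and 0.19), in mCre mice with total-count scaling (0.14) and without mCre-TN replicate 2 (0.14) or mCre-MP replicate 2 (0.12), and in WT mice without WT-TN replicate 1 (0.19) or WT-MP replicate 1 (0.15). S100a1, a neighbour 0.043 kb from S100a13 on the opposite strand, was at 0.99 in mCre mice (SE 0.4, edgeR adjusted p = 0.0661) and 1.24 in WT mice (SE 0.432, edgeR adjusted p = 0.0338). Its WT call was lost with DESeq2 (1.24) and without WT-MP replicate 1 (0.77) or WT-TN replicate 2 (0.91). It averaged 1.66 ± 0.274 CPM in mCre-MP and 1.77 ± 0.698 in WT-MP (SD, n = 2 each), and whether its reads were counted by strand is not stated. Between genotypes 0 of the 8 neighbours were called in MP or TN by edgeR or DESeq2, with 1 in MP and 2 in TN at an unadjusted p under 0.05.

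**Figure D5:**
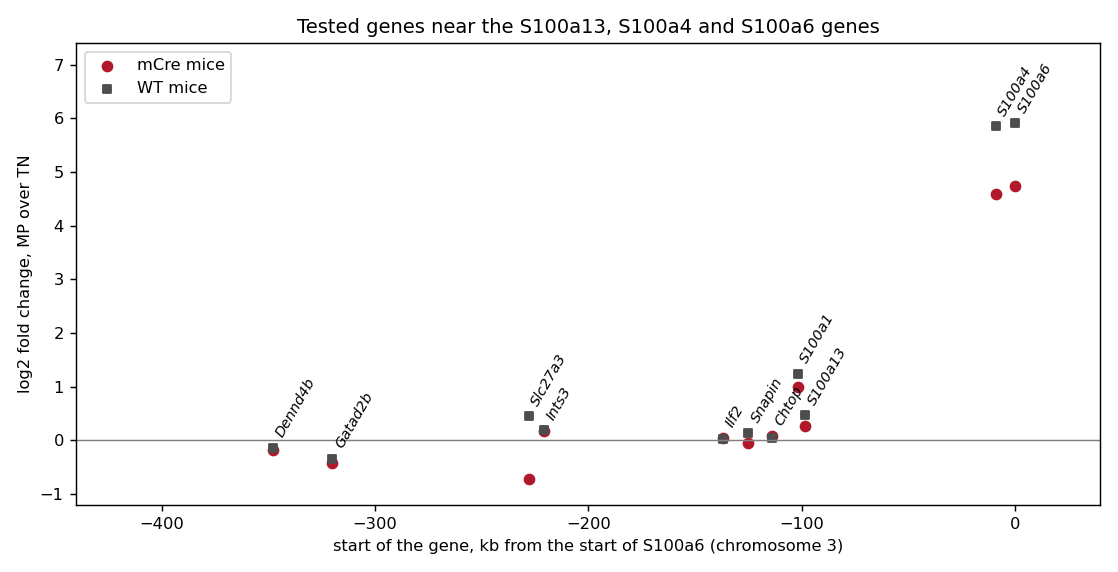
Log2 fold change of MP over TN (vertical axis) for tested genes around S100a13, S100a4 and S100a6, by distance of the gene's start from that of S100a6 (horizontal axis, kb), in mCre mice and in WT mice. S100a4 and S100a6 lie at 4.60 or more, whereas the other genes lie at 1.24 or less.

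For the most abundant member of each family by CPM, the genes with the most similar pattern over the 8 libraries were listed, by the root mean square difference of centred log2 CPM among 8561 genes. For S100a10 (SD 0.148 on the log2 scale over the libraries) they were Smim10l1 (0.0193), Rps23 (0.028) and Use1 (0.0305). For Anxa6 (SD 0.128) they were Ccnk (0.0237), Anxa7 (0.0239) and Wbp2 (0.0273). The difference was not scaled by the SD, so any gene that varies little lies close to S100a10 and Anxa6. For Lgals1, whose level varied more (SD 0.939 on the log2 scale), they were Adora2a (0.152), Myb (0.159) and Kifc3 (0.168).

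Other genes of the 3 families were compared with the members. Of 11 other S100 genes, S100a1 alone was tested, and the other 10 had 0 to 41 counts each over all 8 libraries, S100a8 and S100a9 among them. Of 8 other annexin genes 5 were tested, and 2 rose in MP in each genotype (median log2 fold change 0.19 in mCre mice and 0.16 in WT mice). Anxa7 was at 0.27 in mCre mice (SE 0.0526, edgeR adjusted p = 0.000613) and 0.22 in WT mice (SE 0.0538, edgeR adjusted p = 0.00412), where its call was lost without WT-MP replicate 2 (0.18). Anxa11 was at 0.19 (SE 0.0594, edgeR adjusted p = 0.0179) and 0.20 (SE 0.0619, edgeR adjusted p = 0.0205), and its calls were lost with DESeq2 (0.19 and 0.20), in mCre mice without any single library of the mCre groups (0.17 to 0.21), and in WT mice without WT-TN replicate 1 (0.16), WT-MP replicate 1 (0.20) or WT-MP replicate 2 (0.20). These differences were of the size seen for Anxa6. Between genotypes 0 of the 5 were called by edgeR or DESeq2, with 0 at an unadjusted p under 0.05.

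Among 10 other galectin genes and relatives, 6 were tested, of which 4 rose and 0 fell in MP in each genotype (median 0.37 in mCre mice and 0.33 in WT mice). Lgals3, whose protein galectin-3 cross-links surface glycans, averaged 11.8 ± 0.476 CPM in mCre-MP, 8.98 ± 0.611 in WT-MP, then 1.28 ± 0.0218 in mCre-TN and 1.67 ± 0.684 in WT-TN (SD, n = 2 each). Its log2 fold change, MP over TN, was 3.24 in mCre mice (SE 0.214, edgeR adjusted p = 5.36e-10) and 2.49 in WT mice (SE 0.227, edgeR adjusted p = 5.58e-08), above the 1.37 and 2.01 of Lgals1. Lgalsl was at 1.44 and 1.85, and Lgals8 at 0.24 and 0.26. Lgals3bp, a secreted glycoprotein that binds galectins, was at 0.50 and 0.40, and was higher in mCre than in WT mice, at 0.57 in MP (SE 0.0703, edgeR adjusted p = 0.000226) and 0.47 in TN (SE 0.0719, edgeR adjusted p = 0.00204). The TN call was lost without WT-TN replicate 2 (0.43). Lgals1 in MP cells lay on the other side, lower in both mCre libraries.

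Genes related to the members were examined as 8 lists: the other genes of the 3 families above, binding partners, receptors, galectin-1 ligands and glycan enzymes, membrane repair, and other EF-hand calcium binders. Of 73 tested genes in the 8 lists, 29 rose and 7 fell in MP in mCre mice, and 30 rose and 9 fell in WT mice. That is 49.3% and 53.4% of them, where 32.5% and 31.7% of all genes were called. Between genotypes 4 were higher and 2 lower in mCre-MP, and 2 higher and 0 lower in mCre-TN, 8.22% and 2.74% of them, where 4.04% and 3.47% of all genes were called. Nothing is read from these shares, because the lists were chosen with earlier results of these data known and hold a sort marker, Cd44. Among 12 binding partners 3 rose in mCre mice, and 4 rose and 1 fell in WT mice (median 0.09 and 0.07). Ahnak, a giant scaffold protein that binds the complex of S100A10 and annexin A2, averaged 1730 ± 144 CPM in mCre-MP, 1980 ± 33.7 in WT-MP, then 451 ± 66.6 in mCre-TN and 470 ± 45.4 in WT-TN (SD, n = 2 each). Its log2 fold change, MP over TN, was 1.97 in mCre mice (SE 0.119, edgeR adjusted p = 3.83e-05) and 2.09 in WT mice (SE 0.12, edgeR adjusted p = 3e-05). That of Anxa2 was close in WT mice, at 2.04, and smaller in mCre mice, at 1.38. Cd44, a sort marker, was at 3.41 and 3.27.

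Plat, the plasminogen activator bound by that complex, was at 1.03 in WT mice (SE 0.291, edgeR adjusted p = 0.0104; 0.91 and not called without WT-MP replicate 1) and 0.69 in mCre mice (SE 0.288, edgeR adjusted p = 0.0753). Plat was low, averaging 2.18 CPM in mCre-MP, 3.08 in WT-MP, then 1.39 in mCre-TN and 1.52 in WT-TN. Myh9, the myosin heavy chain bound by S100A4, was at −0.18 in WT mice (SE 0.0499, edgeR adjusted p = 0.00993) and −0.02 in mCre mice (SE 0.0498, edgeR adjusted p = 0.784). The Myh9 call was lost without WT-TN replicate 1 (−0.10), WT-MP replicate 1 (−0.19) or WT-MP replicate 2 (−0.16). Between genotypes 0 of 12 partners were called in MP or TN by edgeR or DESeq2, with 2 in each subset at an unadjusted p under 0.05.

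Of 5 tested receptors for S100 proteins, annexin A1 or extracellular partners, 3 rose and 1 fell in MP in mCre mice, and 2 rose and 1 fell in WT mice (median 0.16 and 0.33). Ager, which encodes the S100 receptor RAGE, was at −1.28 in mCre mice (SE 0.251, edgeR adjusted p = 0.000555) and −0.97 in WT mice (SE 0.24, edgeR adjusted p = 0.00416; −0.69 and not called without WT-TN replicate 2), the direction opposite to S100a4 and S100a6. The level of Ager was low, averaging 1.89 CPM in mCre-MP, 2.81 in WT-MP, then 4.6 in mCre-TN and 5.5 in WT-TN. Bsg, which encodes CD147, was at 0.52 and 0.52. Cd69, whose protein binds the S100A8-S100A9 complex, was at 0.55 and 0.33, and was higher in mCre-MP than in WT-MP (0.40, SE 0.0536, edgeR adjusted p = 0.000156). The formyl peptide receptor genes Fpr1, Fpr2 and Fpr3, receptors of annexin A1, had 13, 6 and 0 counts in all.

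Of 15 tested galectin-1 ligands and glycan enzymes, 8 rose and 2 fell in MP in mCre mice, and 7 rose and 1 fell in WT mice (median 0.22 and 0.20). Itgb1, the β1 integrin chain, averaged 330 ± 26.2 CPM in mCre-MP, 419 ± 21.3 in WT-MP, then 103 ± 7.16 in mCre-TN and 104 ± 0.408 in WT-TN (SD, n = 2 each). It was at 1.70 in mCre mice (SE 0.0618, edgeR adjusted p = 7.35e-14) and 2.02 in WT mice (SE 0.063, edgeR adjusted p = 6.46e-15), MP over TN. In MP cells Itgb1 was lower in mCre mice (−0.35, SE 0.0589, edgeR adjusted p = 0.00164), the direction seen for Lgals1 and Anxa2. Cd7, another galectin-1 ligand, was at 0.42 and 0.76, MP over TN, and at −0.37 in mCre-MP against WT-MP (SE 0.0802, edgeR adjusted p = 0.0263). That call was lost without WT-MP replicate 1 (−0.39), WT-MP replicate 2 (−0.36) or mCre-MP replicate 1 (−0.28).

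The mannosidase gene Man2a1 was at 0.66 and 0.57, MP over TN, and Cd2 at 0.22 (not called without mCre-TN replicate 2, 0.15) and 0.24. Thy1, a surface glycoprotein of T cells, was at 0.25 in mCre mice and 0.17 in WT mice, MP over TN (not called in WT mice without WT-MP replicate 1, 0.16). It was higher in mCre than in WT mice, at 0.43 in MP (SE 0.0463, edgeR adjusted p = 1.81e-05) and 0.35 in TN (SE 0.0464, edgeR adjusted p = 0.000192).

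Genes of membrane repair, a process in which annexins act, were divided. Of 12 tested, 2 rose and 2 fell in MP in mCre mice, and 3 rose and 3 fell in WT mice (median 0.04 and 0.03). Ehd1, an endosomal recycling ATPase, was at −0.84 in mCre mice (SE 0.0631, edgeR adjusted p = 3.75e-09) and −0.89 in WT mice (SE 0.0642, edgeR adjusted p = 2.07e-09). Capn2, a calpain protease, was at 0.56 and 0.52, Ehd4 at 0.70 and 0.52, and Capns1 at 0.08 (not called) and 0.17, where the call was lost without WT-TN replicate 1 (0.17) or WT-MP replicate 2 (0.14). Chmp4b, an ESCRT subunit gene, was higher in mCre-MP than in WT-MP (0.22, SE 0.0495, edgeR adjusted p = 0.0154), a call lost without any single MP library (0.19 to 0.24).

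Of 17 tested EF-hand proteins outside the S100 family, 7 rose and 2 fell in MP in mCre mice, and 7 rose and 3 fell in WT mice (median 0.06 in each). Efhd2 was at 1.10 in mCre mice (SE 0.0553, edgeR adjusted p = 8.77e-12) and 1.21 in WT mice (SE 0.0564, edgeR adjusted p = 2.65e-12). The calmodulin gene Calm2 was at 0.50 and 0.59, Rcn1 at 0.75 and 0.60, and the calcium store sensor Stim2 at 0.65 and 0.55. None of the named EF-hand genes approached the 4.60 to 5.91 of S100a4 and S100a6. Between genotypes 0 of 17 were called by edgeR or DESeq2, with 3 in MP and 2 in TN at an unadjusted p under 0.05. The interaction was called for 0 of the 73 genes of the 8 lists by edgeR or DESeq2, with 9 at an unadjusted p under 0.05.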

How the data were processed

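RNA from sorted spleen CD8+ T cells was sequenced after strand-preserving library preparation, per the labels' protocols. The authors deposited raw counts, 1 column per library. Reads went through Trim Galore, HISAT2 on mm10 and featureCounts, per the submitters' processing notes; the sources used here give no versions, gene annotation, strand setting or treatment of reads with several matches, so counts of overlapping genes and near-identical copies are uncertain. The table had 0 lines that named no gene.

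The 10 genes and all gene lists were chosen with earlier results of these data known. Levels are CPM of the total counts. Differences came from edgeR 4.0.16 in R 4.3.3 on the deposited counts: quasi-likelihood F test, two-sided, TMM scaling, robust dispersion, edgeR's expression filter (12313 genes), 1 fit of all 8 libraries with a mean per group. P-values were adjusted by Benjamini-Hochberg over all genes tested and called under 0.05; standard errors are the log2 fold change divided by the root of F. With 2 libraries a group, which the labels do not say came from separate animals, p-values measure only the spread between these libraries, which may be technical. From each list, the text names up to 4 called genes with the smallest p in MP against TN in WT mice and up to 2 in any genotype comparison, together with the sort markers and the 3 genes most like the most abundant member of each family (mean log2 CPM of at least 3). Exon lengths, UTRs and coordinates are from GENCODE M21 on GRCm38, 1-based; sequences are from RefSeq. The fit was tested on simulated counts. Alternatives were DESeq2 1.42.0, total-count scaling, no filter, a filter of 50 counts in 2 libraries, a replicate block, fits of the compared groups alone, and leaving out each library. Python 3.11.15 and numpy 2.4.6 were used for tables.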

Additional observations from a re-analysis of the deposited data

Results flagged for a closer look

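The genotype difference of S100a6 depended on the subset. In the fit over all genes, the MP over TN log2 fold change was lower in mCre than in WT mice by an interaction of −1.164 (SE 0.141), which was called. In TN cells the log2 fold change, mCre over WT, was 0.953, with 6.82 and 5.70 CPM in mCre-TN and 3.26 and 3.23 CPM in WT-TN. In MP cells it was −0.211, with 168 and 165 CPM in mCre-MP and 191 and 196 CPM in WT-MP. That MP difference was called, but the call was lost with DESeq2 and when any single MP library was left out. The libraries of the genotypes did not overlap in either subset, as for 48.9% of all tested genes in MP and 45.8% in TN.

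Anxa2 had an interaction of −0.667 (SE 0.123), which was called; the call was lost without mCre-TN replicate 1, WT-TN replicate 2, WT-MP replicate 2 or mCre-MP replicate 2 (−0.687 to −0.566). The genotypes differed in MP cells, at 51.0 and 51.7 CPM in mCre-MP and 79.4 and 92.1 CPM in WT-MP, and overlapped in TN cells, at 21.5 and 18.7 CPM in mCre-TN and 21.8 and 20.3 CPM in WT-TN. Both genes were chosen with these levels known, so the calls are a description.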

How the results depend on the processing

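Among the 10 members, no called difference changed direction under any alternative run. The filter of 50 counts removed Anxa1, so that the members' median log2 fold change, MP over TN, became 0.268 in mCre mice and 0.470 in WT mice. DESeq2 called 1 member in mCre-MP against WT-MP, 26 genes for the interaction and 1 neighbour of the S100 genes in WT mice, where edgeR called 3, 16 and 3. With no filter on low counts 888 genes were called in mCre-MP against WT-MP, 783 in mCre-TN against WT-TN and 81 for the interaction, where the filtered fit called 498, 427 and 16; in the 8 lists 12, 5 and 2 were called in place of 6, 2 and 0. Without single libraries the members' median in mCre mice was 0.705 to 0.935 for MP over TN and that of the interaction −0.401 to −0.136. The members called were 5 to 9 for MP over TN in mCre mice (5 without mCre-MP replicate 2), 1 to 4 for mCre-MP against WT-MP, 1 to 3 for mCre-TN against WT-TN and 1 to 3 for the interaction. Genes called over the whole table were 195 to 593 for mCre-MP against WT-MP (195 without WT-MP replicate 2), 204 to 446 for mCre-TN against WT-TN (204 without mCre-TN replicate 2) and 9 to 32 for the interaction (9 without WT-MP replicate 1, 32 without mCre-MP replicate 1). Calls in the 8 lists were 1 to 3 for mCre-TN against WT-TN, and neighbours of the S100 genes 1 to 3 for MP over TN in each genotype. The causes were not tested; a group left with 1 library was assumed to vary like the other groups. Of 96 called results of named list genes, 71 were called under every alternative and 0 reversed. The correlation of the replicate differences was 0.109 between WT-TN and WT-MP and 0.0769 between mCre-TN and mCre-MP. Between groups of different genotypes it was −0.0446 to −0.0139. Whether a replicate number pairs MP and TN libraries of a genotype was not tested, because the replicate block was shared by both genotypes. With that block 4145 genes were called for MP over TN in mCre mice and 4036 in WT mice. It gave 617 calls in mCre-MP against WT-MP, 548 in mCre-TN against WT-TN and 18 for the interaction. The members' counts of calls were the same. Low counts limit Anxa1 throughout and S100a4 in TN cells.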
